A study of Mus musculus with 6 samples.

Results

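The genes described here encode secreted proteins known from saliva, urine and nasal mucus. They are Spt1 and Spt2 (salivary proteins 1 and 2), Amy1 (salivary amylase), Smr2 (a submaxillary gland protein), Mup1, Mup3, Mup4 and Mup5 (major urinary proteins) and Obp1a (an odorant-binding protein). They were taken by gene name from the non-control rows of the arrays, which held 13 probes for these 9 genes among 41174 probes with 27745 gene names. In sorted thymic medullary epithelial cells, 7 of the 9 genes gave signals well above background on all 3 arrays. So did 31710 of all 41174 probes. All 7 genes were higher there than in sorted thyroid epithelial cells (limma adjusted p under 0.05), as were 37.3% of all tested probes. Of the 7, 6 were tested only because of their thymic signal. Spt2 was at least 620.0-fold and Spt1 at least 103-fold higher. Mup1 was at least 60.8-fold and Mup4 78.8-fold higher, whereas Mup3 (2.43-fold) and Amy1 (2.53-fold) differed far less. Smr2 and Obp1a were well above background on no array.

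Total RNA of C57BL/6 mice was measured on 6 single-colour Agilent arrays in 2 groups of 3. The labels name no genotype, treatment or age. The thymic group came from the medulla of the thymus and was sorted for Epcam (an epithelial adhesion protein) and binding of the lectin UEA1, and the thyroid group for Epcam alone. Both gates left out cells with CD45, the surface protein of blood cells, and dead cells stained by Fluorogold. Thymic replicates 1 and 2 pooled 6 thymi each and replicate 3 only 2. Every thyroid replicate was a pool of 20 glands, so animal-to-animal spread is not seen within an array. The submitters call the replicates independent.

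Major urinary proteins are small lipocalins, barrel-shaped carriers of hydrophobic molecules. In mice several are made by the liver and excreted in urine, where they bind pheromones, and others are known from lacrimal, salivary and nasal glands. Salivary amylase cleaves starch, and odorant-binding proteins are lipocalins of the nasal mucosa. Medullary thymic epithelial cells are known to transcribe many genes of other tissues, in part through the regulator Aire, and to present the products to developing T cells.

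The probes decide what these measurements can tell apart, so 12 of the 13 are given here, 5′ to 3′, with the mm8 position in the array files; coordinates that span more or fewer than 60 bases are printed as the files give them. Capitals mark the 20 bases that 2 of the Mup1 probes share, the only run of 15 or more bases shared among the 78 pairs of member probes. These 2 probes therefore overlap in sequence and are not independent readings.
Spt2 (chr15_random:13440-13499): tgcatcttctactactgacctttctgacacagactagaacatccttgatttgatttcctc
Spt1 (chr15_random:103989-104048): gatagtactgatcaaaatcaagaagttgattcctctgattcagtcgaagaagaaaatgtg
Mup1 probe A_51_P461703 (chr4:60473446-60473669): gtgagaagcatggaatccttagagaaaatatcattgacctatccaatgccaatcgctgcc
Mup1 probe A_52_P348256 (chr4:61004429-61005728): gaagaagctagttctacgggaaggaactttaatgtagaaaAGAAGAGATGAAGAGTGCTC
Mup1 probe A_51_P180314 (chr4:60555070-60555129): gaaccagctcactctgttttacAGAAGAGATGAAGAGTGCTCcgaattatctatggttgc
Mup4 (chr4:60051006-60051065): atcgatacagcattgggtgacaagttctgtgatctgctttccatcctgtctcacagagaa
Mup5 (chr4:61321424-61321483): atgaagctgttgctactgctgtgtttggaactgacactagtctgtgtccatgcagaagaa
Mup3 probe A_52_P232508 (chr4:61569827-61569875): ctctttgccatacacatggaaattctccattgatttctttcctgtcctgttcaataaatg
Mup3 probe A_52_P232507 (chr4:61570066-61570814): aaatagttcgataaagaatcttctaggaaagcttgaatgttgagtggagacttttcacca
Amy1 probe A_51_P383644 (chr3:113548096-113548155): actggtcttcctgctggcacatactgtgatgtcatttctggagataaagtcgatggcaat
Smr2 (chr5:89162787-89163418): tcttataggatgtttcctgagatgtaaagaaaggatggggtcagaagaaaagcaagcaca
Obp1a (chrX:74344035-74344093): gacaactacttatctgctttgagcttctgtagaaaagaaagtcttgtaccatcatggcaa
The Mup1 probe A_51_P461703 is annotated to transcripts that RefSeq assigns to Mup1, Mup2 and Mup5, and the Amy1 probe shown to those of Amy1 and Amy2a5, so neither is specific to 1 gene. The probes of Spt1 and Spt2 lie on a piece of chromosome 15 that the mm8 build had not placed. RefSeq names the Spt1 transcript Mucl2, while the Spt2 transcript was not matched and keeps the name in the files. Member probes held 35% to 45% G and C, with a median of 40%, which is also the median of all probes.

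Signals below are scanner processed signals, and log2 levels are these signals after division by the array's 75th percentile, which was 674 to 771 for the thymic samples and 475 to 805 for the thyroid samples. A probe counts as well above background where the scanner software set that flag. No spot was saturated. Levels of different probes are not set against each other, since probes differ in brightness. A fold is called "at least" where a probe was well above background on no thyroid array. It then sets the thymic mean against, per thyroid array, the higher of the probe's own value and the lowest signal well above background. The number of arrays limits the precision. In sorted bulk RNA, fewer cells with a transcript and less transcript per cell cannot be told apart.

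Of 32347 tested probes, 68.7% passed the test (limma, Benjamini-Hochberg adjusted p under 0.05), 37.3% with more signal in thymic cells and 31.4% with more in thyroid cells. Of the 9 members, 7 were tested, 7 were higher in thymic cells and none was higher in thyroid cells. This count gives no support of its own, because 6 of the 7 passed the filter through the thymic arrays alone and the members were chosen with results of these data known. The groups of arrays did not overlap for the 10 tested member probes, as for 75.4% of all tested probes. Well above background on all 3 thymic and no thyroid array were 5 of the 13 member probes, against 7.75% of all 41174.

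**Figure D1:**
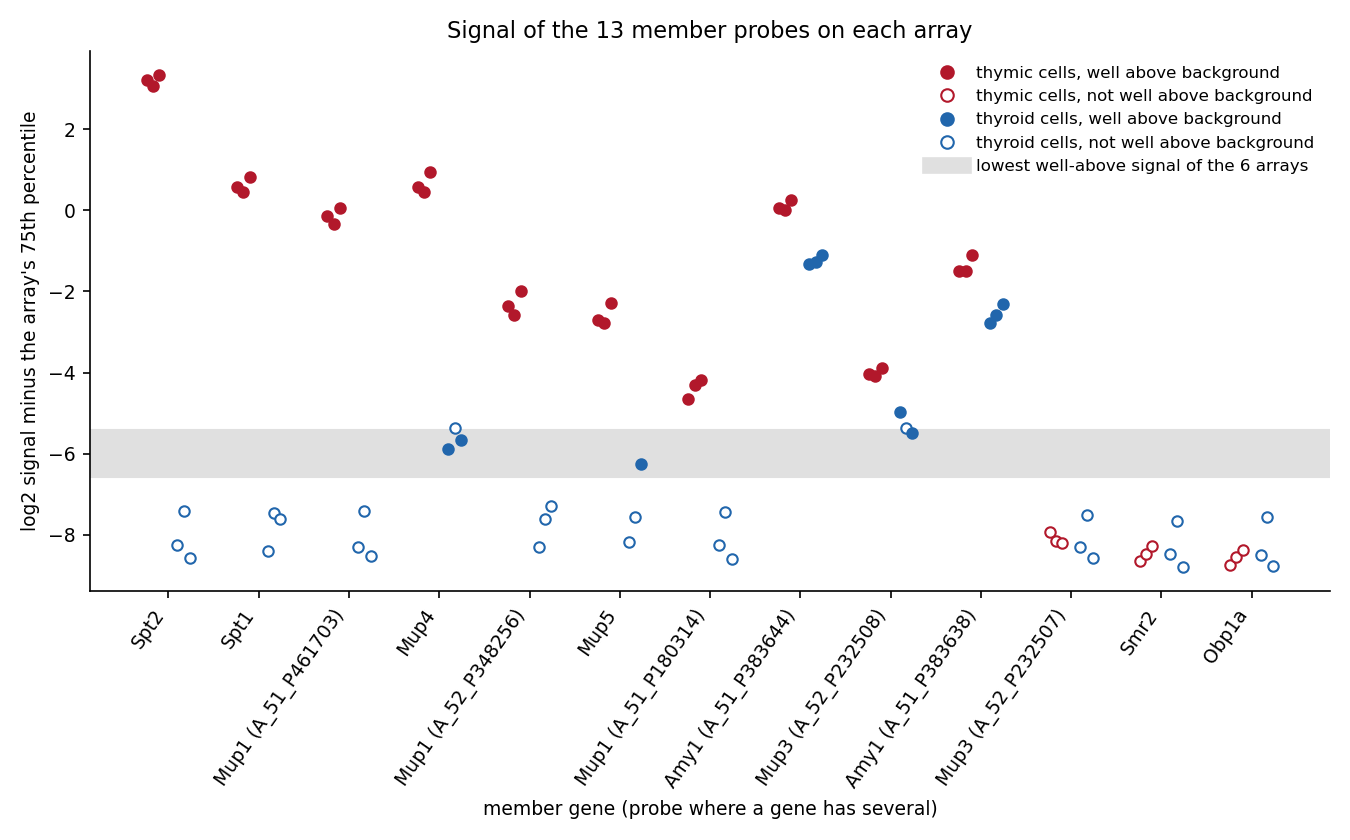
Log2 level of each of the 13 member probes on the 3 thymic arrays (red) and the 3 thyroid arrays (blue), sorted by difference; filled points are well above background and the grey band spans the lowest well-above signal of the 6 arrays. Both groups of points are filled for Amy1, and all points are open for Smr2, Obp1a and the Mup3 probe A_52_P232507.

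Of the salivary genes, Spt2 was well above background on the thymic arrays alone. Its signal was 7187, 5872 and 6777 in thymic cells, against 2.62, 2.77 and 1.86 in thyroid cells. All 3 thyroid values stood at the scanner's substitute for spots not above background. The log2 level averaged 3.21 ± 0.13 in thymic cells and -8.09 ± 0.60 in thyroid cells (n = 3 each, ± SD), a difference of 11.29 ± 0.29 (SE, limma adjusted p = 4.46e-07).

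Spt1 gave 1153, 959.8 and 1201 in thymic cells and 2.38, 2.67 and 3.64 in thyroid cells. Thyroid replicate 3 was the only thyroid array on which the weaker flag of a positive and significant signal was set. The levels were 0.62 ± 0.19 in thymic cells and -7.83 ± 0.50 in thyroid cells (n = 3 each, ± SD), and the log2 difference was 8.45 ± 0.26 (SE, limma adjusted p = 7.33e-07).

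Amy1 was the only member well above background on all 6 arrays, so its comparison does not rest on background values. Probe A_51_P383644 read 801, 703 and 805 in thymic against 324, 196 and 332 in thyroid cells. Its log2 level was 0.11 ± 0.13 in thymic cells and -1.23 ± 0.11 in thyroid cells (n = 3 each, ± SD), which differ by 1.34 ± 0.12 (SE, limma adjusted p = 8.12e-05). The second probe, A_51_P383638, read 273, 248 and 313 in thymic against 117, 79.7 and 143 in thyroid cells. The difference of 1.19 ± 0.17 (SE) passed the test too (limma adjusted p = 7.68e-04). With median centring, which moved all probes by -0.52, the 2 differences were 0.81 and 0.67 and passed the test. The pancreatic amylase probe, named Amy2 in the files and 133 kb away, was at -5.05 in thymic and -6.84 in thyroid cells, where no array was well above background. The thymic signal was higher by at least 1.97-fold (limma adjusted p = 2.62e-04).

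Smr2 gave 1.91, 1.96 and 2.18 in thymic and 2.26, 2.34 and 1.60 in thyroid cells, all at the background substitute. The groups overlapped. Without the filter, the log2 difference was -0.16 with a 95% interval of -0.89 to 0.58 (limma adjusted p = 0.686), which describes background values and gives no level. Of 22 probes of its neighbours on chromosome 5, 16 were well above background on all thymic arrays, 2 on some and 4 on none, among them those of Ambn and 2310003L06Rik. Smr1, a related submaxillary gene 79.9 kb away, was at -4.22 ± 0.47 in thymic cells and -8.06 ± 0.55 in thyroid cells (n = 3 each, ± SD), at least 3.59-fold higher (limma adjusted p = 6.13e-05). Muc10, a salivary mucin gene on the other side, was at least 1.52-fold higher. The milk casein genes lie in the same stretch, and Csn2, 395 kb from Smr2, was at least 1073.5-fold higher.

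**Figure D2:**
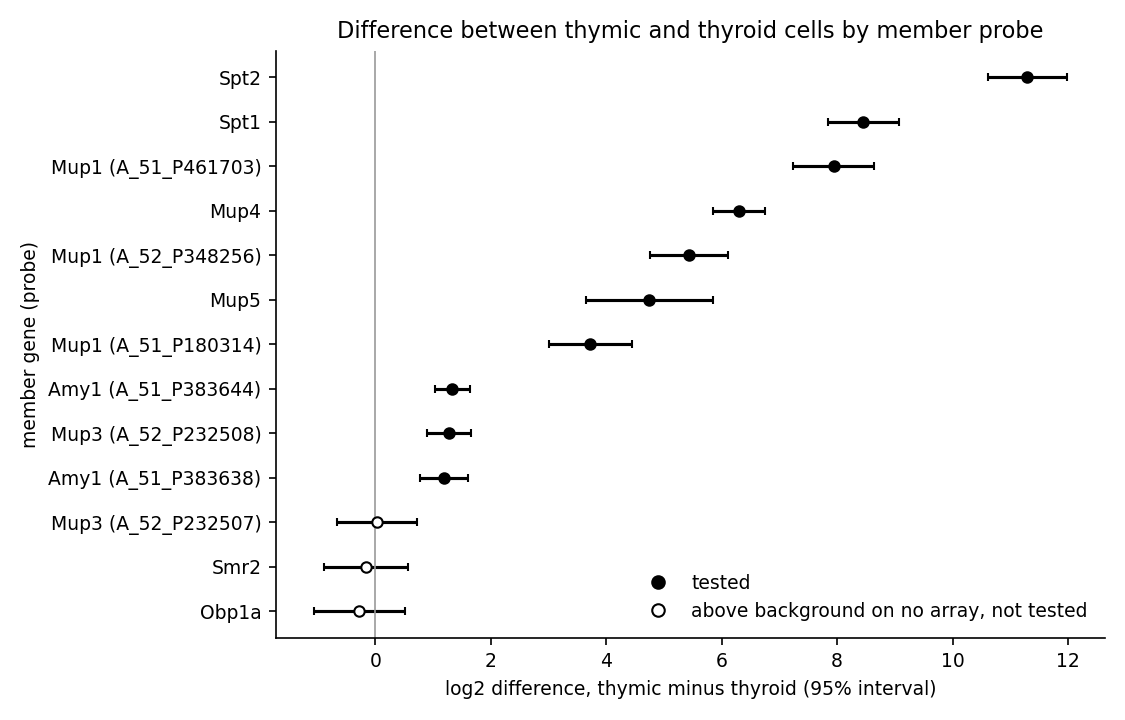
Log2 difference, thymic minus thyroid, of each member probe with its 95% interval from limma; filled points were tested and open points were well above background on no array. Differences run up to 11.29 for Spt2, and the 3 open points have intervals that include 0.

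Of the major urinary protein genes, Mup1 had 3 probes that all read higher in thymic cells. Probe A_51_P461703 gave 701, 551 and 699.7 in thymic against 2.56, 2.80 and 1.91 in thyroid cells. Its log2 difference was 7.94 ± 0.30 (SE, limma adjusted p = 1.41e-06). Since the probe also covers transcripts of Mup2 and Mup5, this value belongs to the group rather than to Mup1 alone.

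Probe A_52_P348256 gave 149, 117 and 170.2 in thymic against 2.54, 2.41 and 4.52 in thyroid cells, a log2 difference of 5.43 ± 0.28 (SE, limma adjusted p = 5.34e-06) and at least 13.5-fold. Probe A_51_P180314 gave 30.6, 35.5 and 37.2 in thymic against 2.62, 2.72 and 1.84 in thyroid cells. It differed by 3.72 ± 0.30 (SE, limma adjusted p = 4.10e-05), at least 3.23-fold. None of the 3 probes was well above background on any thyroid array.

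Mup4, a form known from nasal and lacrimal tissue, gave 1150.4, 953 and 1305 in thymic cells. Its thyroid signals of 13.6, 11.5 and 14.1 were low but well above background on replicates 1 and 3. The log2 level was 0.66 ± 0.26 in thymic cells and -5.64 ± 0.26 in thyroid cells (n = 3 each, ± SD), with a difference of 6.30 ± 0.19 (SE, limma adjusted p = 7.26e-07).

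Mup5, known from salivary glands, gave 119, 102 and 139 in thymic against 2.78, 2.52 and 9.23 in thyroid cells. Thyroid replicate 3 stood apart from the other thyroid arrays and was the only one well above background. The log2 difference was 4.75 ± 0.46 (SE, limma adjusted p = 9.88e-05), and the signal was at least 10.4-fold higher with the thyroid arrays below background set to their lowest signal well above it.

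Mup3 differed least. Probe A_52_P232508 gave 47.3, 41.4 and 45.5 in thymic against 25.4, 11.5 and 15.9 in thyroid cells, where replicates 1 and 3 were well above background. The SD of its log2 level was 0.10 in thymic cells and 0.26 in thyroid cells (n = 3 each), and the log2 difference was 1.28 ± 0.16 (SE, limma adjusted p = 3.24e-04). The call was lost with quantile normalization (0.24, limma adjusted p = 0.209) and with normexp background correction (0.28, limma adjusted p = 0.141). The second Mup3 probe, A_52_P232507, read 3.15, 2.45 and 2.28 in thymic and 2.54, 2.59 and 1.85 in thyroid cells and was well above background on no array. A probe annotated as major urinary protein III and placed within 1 kb of it, TC1755975, was at -5.07 in thymic and -7.81 in thyroid cells, at least 2.00-fold higher (limma adjusted p = 3.90e-04).

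The Mup probes lie in 1 cluster on chromosome 4, which RefSeq fills with 22 genes and 23 named pseudogenes. Between the Mup4 and Mup3 probes, 1.52 Mb apart, the arrays held 12 probes with 9 gene names, 7 of them member probes. All 11 tested probes were higher in thymic cells, with log2 differences of 1.28 to 7.94 and a median of 5.21, or 3.38 with the thyroid arrays below background set to their lowest signal well above it; the median over all tested probes was 0.06. All 11 passed the filter through the thymic arrays alone, so a higher thymic signal was largely set by the filter and the count gives no support. The 5 probes that are not members ranged between 2.74 and 5.58. One of them, RP23-68L5.1 in the files, carries a transcript that RefSeq names Mup6 and differed by 5.58 (limma adjusted p = 5.35e-06). Outside the cluster, in the adjoining stretches on both sides, 26 of 30 probes were tested. Of these 12 passed the test towards thymic cells and 3 towards thyroid cells, with a median difference of 0.32. Slc46a2, which encodes a solute carrier known from thymic stroma and lies 50.9 kb beyond Mup4, differed by 9.37. Snx30, 57.8 kb beyond Mup4, differed by 2.21. On the other side, the probes named RP23-64F17.3, the nearest beyond Mup3, differed by 2.08 to 3.05. The flanking genes nearest the cluster were thus also higher in thymic cells. Hsdl2 and Cdc26, farther out, differed by 0.41 and -0.05 on the probes with the highest mean level.

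**Figure D3:**
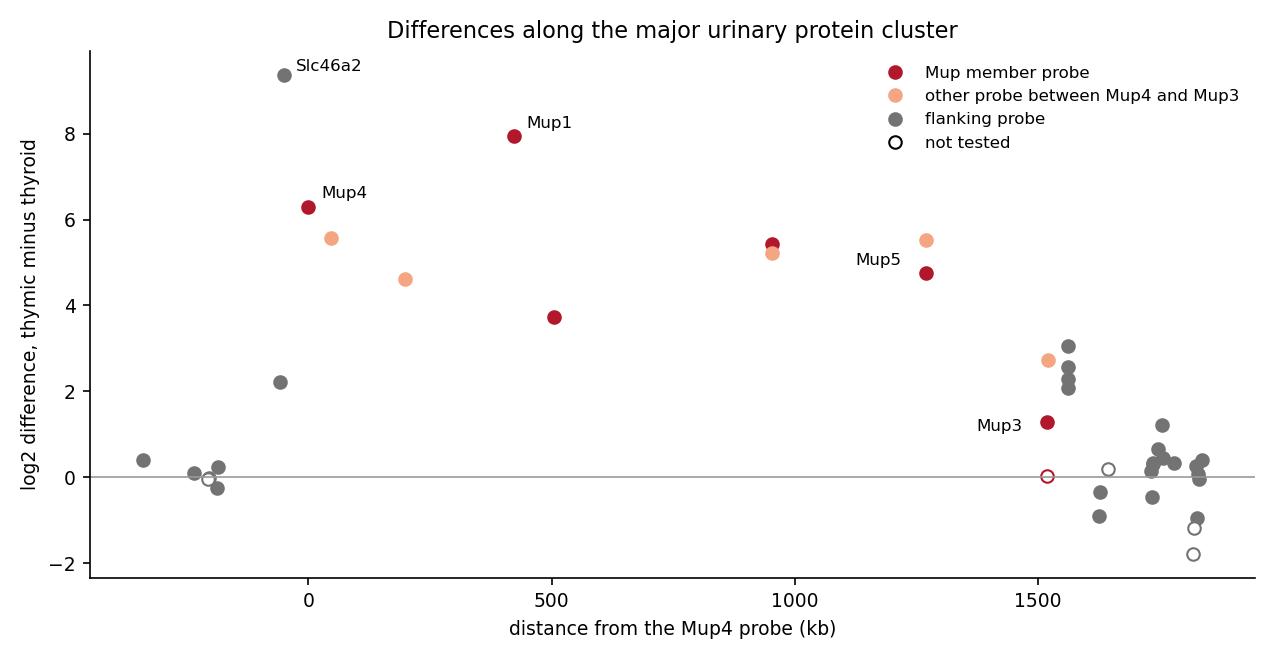
Log2 difference, thymic minus thyroid, of each probe against its distance in kb from the Mup4 probe; red points are member probes, orange points other probes of the cluster, grey points flanking probes and open points were not tested. The tested cluster probes lie between 1.28 and 7.94, and the flanking probes around a median of 0.32.

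RefSeq promoters (GRCm38.p6, 250 bases before to 50 after the start) were matched for 6 of the 9 genes, with 2 starts for Amy1. Those of Mup4 and Mup3 are shown because the genes bound the cluster and differed by unequal amounts. Capitals mark TATAA, the core letters of a TATA box, searched on both strands in the last 50 bases before the start; these letters were chosen after the promoters had been seen, since a longer form of the motif missed Mup3.
Mup4 (chr4:59960618-59960917, minus strand): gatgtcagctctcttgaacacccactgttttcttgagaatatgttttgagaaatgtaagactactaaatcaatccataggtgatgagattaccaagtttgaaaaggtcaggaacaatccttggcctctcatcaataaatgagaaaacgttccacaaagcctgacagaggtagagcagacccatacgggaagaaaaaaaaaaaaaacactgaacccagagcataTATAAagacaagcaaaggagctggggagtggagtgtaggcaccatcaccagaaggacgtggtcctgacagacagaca
Mup3 (chr4:62087268-62087567, minus strand): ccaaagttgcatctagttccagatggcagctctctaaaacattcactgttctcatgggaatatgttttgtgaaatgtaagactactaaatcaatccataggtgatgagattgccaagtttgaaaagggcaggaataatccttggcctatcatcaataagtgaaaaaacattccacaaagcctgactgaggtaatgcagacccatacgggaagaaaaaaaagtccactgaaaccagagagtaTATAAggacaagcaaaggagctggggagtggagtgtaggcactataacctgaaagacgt
The 2 promoters were 77.6% identical over a global alignment, against 41.8% to 49.1% for the other pairs of member promoters. TATAA stood in 4 of the 7 member promoters (Mup4, Mup3, Smr2 and Obp1a), in 11 of 14 Mup promoters and in 6.36% of 32851 promoters. It was present in members with a signal and in members without one, and its bearing on the signals was not tested. Relative to the RefSeq start it stood at -27 in Mup4, -28 in Smr2 and -30 in Obp1a, but at -9 in Mup3.

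Obp1a gave 1.79, 1.85 and 2.04 in thymic and 2.21, 2.51 and 1.63 in thyroid cells, all at the background substitute. Without the filter the log2 difference was -0.28 with a 95% interval of -1.06 to 0.51 (limma adjusted p = 0.518). On chromosome X, Pbsn (probasin, a prostate lipocalin) 246 kb away was likewise well above background on no array. A probe named EG628991, 99.7 kb to the other side, was at -4.37 in thymic and -8.08 in thyroid cells, at least 3.24-fold higher (limma adjusted p = 2.50e-04).

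The genes most like each member over the 6 arrays were those with the smallest Euclidean distance between log2 levels, among 14056 genes. They were Ear1 (distance 0.16) and Cd80 (0.35) for Spt1, Defb6 (0.80) and Fezf2 (0.81) for Spt2, and Tpsg1 (0.15) and Spink2 (0.37) for Mup1. For Mup4 they were Cga (0.32) and Il1r2 (0.68), and for Mup5 Fbxo15 (0.48) and Krt85 (0.64). Mup3 lay nearest to Zcwpw1 (0.40) and Foxl2 (0.50), and Amy1 to Cttnbp2 (0.41) and Fbxl10 (0.42). For Spt2 and Mup1 the 3 thyroid values lay at background, as did 2 of the 3 for Spt1, where many probes have like values.

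Related secreted families were counted from lists of genes, by 1 probe per gene. Of the odorant-binding proteins and other lipocalins, 17 of 19 genes were tested, 15 were higher in thymic cells and none higher in thyroid cells, with a median log2 difference of 3.59, or 2.66 with the arrays below background at their lowest signal well above it. Of all tested probes, 37.3% were higher in thymic cells. Of the 17, 12 passed the filter through the thymic arrays alone, as did 9 of 16 acinar, 4 of 6 submaxillary, 6 of 17 duct and 2 of 5 secretoglobin genes below, so these counts and medians give no support. Ambp, a plasma protein precursor of the liver, was at least 218-fold higher (limma adjusted p = 3.52e-07), and Orm2, an acute-phase plasma protein, at least 99.9-fold (limma adjusted p = 3.50e-07). Of the salivary acinar secretions, 16 of 16 were tested, 14 were higher in thymic cells and 2 lower, with a median of 4.39, or 3.86 with such arrays at that signal; Spt2 and Spt1 are among them. The 2 that fell were Bhlhb8, a transcription factor of secretory cells (-3.82), and the water channel gene Aqp5 (-1.17), neither of which encodes a secreted protein.

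Of the salivary duct secretions, 15 of 17 tested genes were higher in thymic cells and 1 lower, with a median log2 difference of 5.90, or 5.77 with such arrays at that signal. Klk1b11, a glandular kallikrein, was at least 560.3-fold and Klk6, listed by its name alone, at least 81.0-fold higher. The nerve growth factor gene Ngfb fell by 1.34. Of the submaxillary and proline-rich secretions, 6 of 9 were tested and 5 were higher in thymic cells, with a median of 2.49, or 1.22 with such arrays at that signal. The proline-rich protein gene Prb1 was at least 14.0-fold and Smr1 at least 3.59-fold higher. All 5 tested of 7 secretoglobins were higher, with a median of 3.80, or 2.82 with such arrays at that signal. Scgb1a1, a secretory protein of the airway and above background on all 6 arrays, differed by 6.15, and Abpb, an androgen-binding protein gene, was at least 6.83-fold higher. Restricted to probes well above background on all 6 arrays, 5 of 7 acinar and 9 of 11 duct genes passed the test towards thymic cells. Towards thyroid cells, 2 acinar genes and 1 duct gene passed. Over all such probes the shares were 28.2% towards thymic and 37.9% towards thyroid cells. The 9 duct genes were all Klk1 or Klk1b genes of 1 family, and whether their probes tell them apart was not tested. No Mup gene name other than the 4 members was on the arrays.

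**Figure D4:**
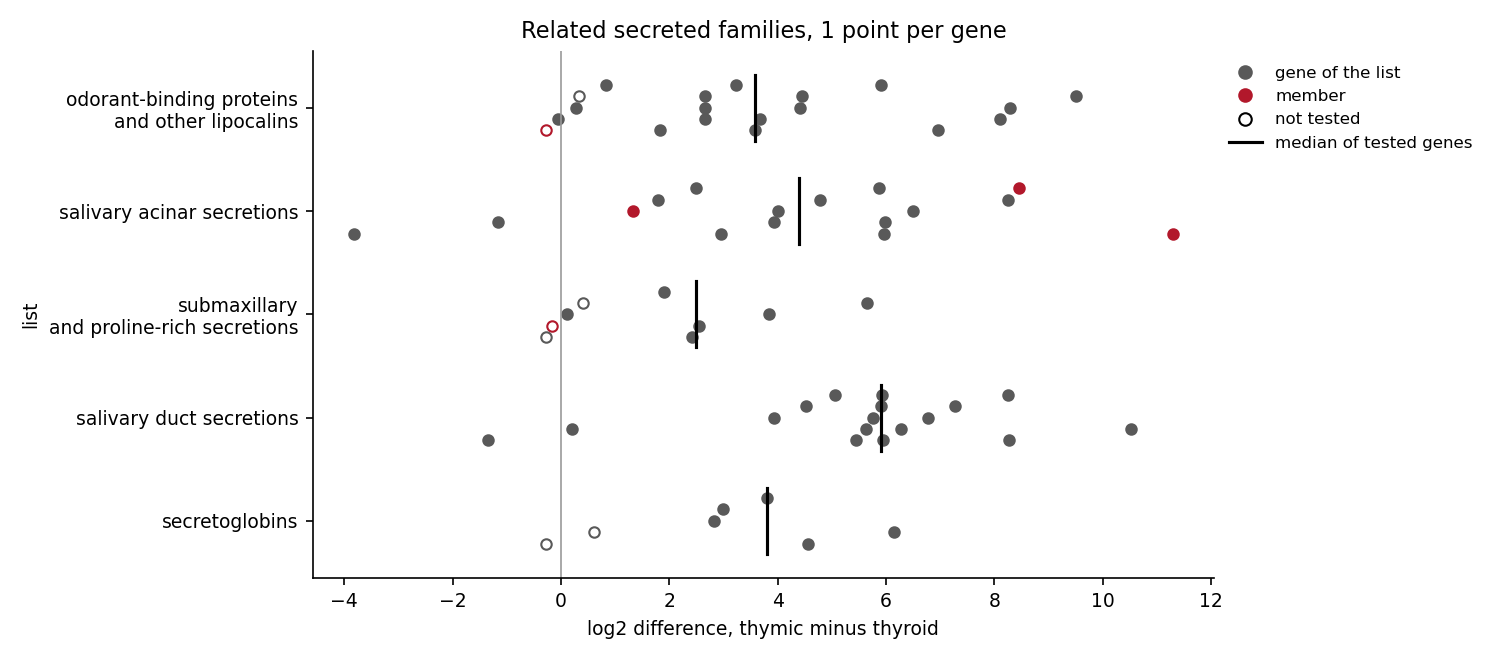
Log2 difference, thymic minus thyroid, of each gene of 5 lists of secreted proteins (1 point per gene; vertical bars are medians of tested genes; members in red; open points were not tested). Medians lie between 2.49 and 5.90, and Bhlhb8, Aqp5 and Ngfb are the called genes below 0.

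The labelled cell types were checked by their markers. All 5 medullary markers, among them Aire and Fezf2, were higher in thymic cells, and all 6 thyroid follicle markers higher in thyroid cells. The thyroid cells also carried the endothelial list, with summed signals of 208 to 273 in thymic and 204909 to 333071 in thyroid cells. In the thymic cells all 4 thymocyte markers (summed 868 to 1350, against 247 to 513 in thyroid cells) and all 5 B and myeloid cell markers (64492 to 77572, against 500.2 to 986) were higher. Ptprc, which encodes CD45, was at -0.95 in thymic and -5.00 in thyroid cells. The 4 hepatocyte markers Alb1, Apoa1, Ttr and Fgb were well above background on all thymic arrays and on no thyroid array, with summed signals of 1206 to 1546 in thymic and 9.28 to 13.2 in thyroid cells. The part of other cells in the member signals was not tested.

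Among the thyroid arrays, the low processed signals of Spt1, Mup1 probe A_52_P348256, Mup4 and Mup5 were highest in replicate 3. After scaling, however, Spt1 was higher in replicate 2 (-7.47) than in replicate 3 (-7.61). The processed signals of Spt2, the other Mup1 probes, Mup3 probe A_52_P232507, Smr2 and Obp1a were lowest in replicate 3. The acinar secretion gene Dcpp1, chosen after its values were seen, was at -3.34, -4.50 and -0.86 on thyroid replicates 1, 2 and 3, so it was also highest there. Dcpp2, Dcpp3 and Amy1 were highest in replicate 3 too. Other salivary genes went the other way. The acinar genes Plunc (-1.78) and Lpo (-3.05) were lowest in replicate 3. So were the duct genes Klk1b4 (-4.17, -2.68 and -5.37) and Klk1b16 (-4.19, -2.11 and -6.04). The salivary genes thus shared no order over the thyroid arrays. The part of these genes in the low member signals was not tested.

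Within the thymic group, replicate 3 was highest for all 10 member probes well above background, and replicate 2 was lowest for 8. Over all 31710 probes well above background on the thymic arrays, 36.9% were highest in replicate 3. Replicate 3 was also highest in 10 of 10 with median centring, quantile normalization and normexp, where the shares over all probes were 32.3%, 33.9% and 46.4%. For signals that were not scaled it was highest in 7 of 10, against 15.1% of all probes. The 10 probes belong to 7 genes, so they are not separate readings. The deviations were small: the median thymic SD was 0.21 for member probes and 0.13 for all probes. Aire was at 6.09, 5.86 and 6.17 on thymic replicates 1, 2 and 3, and Ptprc at -1.12, -1.30 and -0.43, so both were also highest in replicate 3, which pooled 2 thymi. Of the other medullary markers, Fezf2 was highest in replicate 3 too, but Cd80 was highest in replicate 1. Foxn1 (1.27, 1.47 and 1.17) and Tnfrsf11a (1.91, 1.91 and 1.71) were lowest in replicate 3. Tacstd1, which encodes Epcam, was also lowest there (3.00, 2.89 and 2.73). Whether any of these genes bears on the member signals was not tested.

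**Figure D5:**
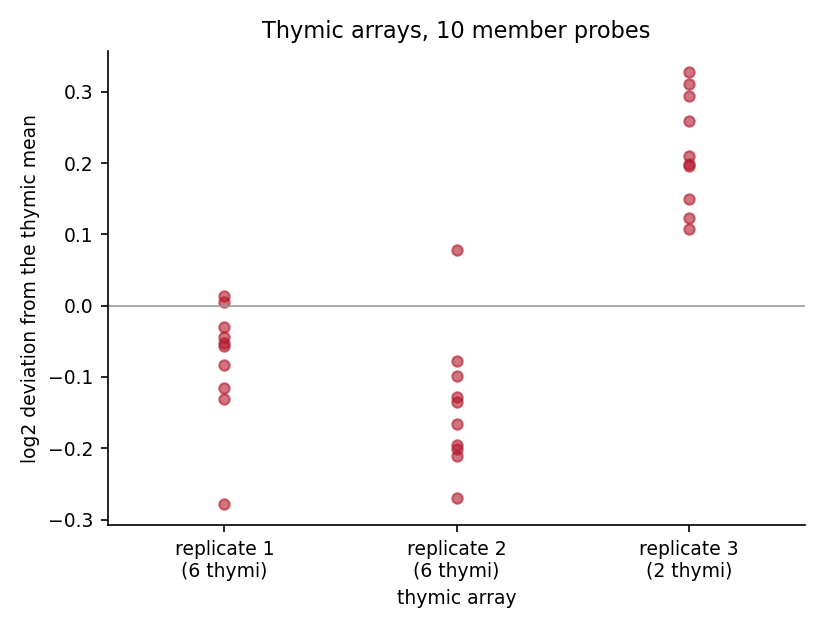
Log2 deviation of each thymic array from the mean of the 3 thymic arrays, 1 point per member probe (10 probes well above background on all 3). All 10 points of replicate 3 lie above 0, with a median of 0.20, and those of replicate 2 have a median of -0.15.

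Slide 1 carried all thymic arrays with thyroid replicate 1, and slide 2 the other two thyroid arrays. On slide 1 alone the log2 differences were 11.47 for Spt2, 9.03 for Spt1, 8.15 for Mup1, 6.55 for Mup4, 5.59 for Mup5, 1.42 for Amy1 and 0.99 for Mup3. All 7 passed the test there, with adjusted p from limma up to 0.0026 (Mup3), and with the slide as a block up to 0.00274. On slide 1 alone the lone thyroid sample is taken to vary as the thymic samples do. With normexp background correction, which adds an offset of 50 to every signal and so compresses differences from dim values, they were 6.66 for Spt2, 4.08 for Spt1, 3.91 for Mup4, 3.43 for Mup1 and 1.51 for Mup5, and all 5 passed the test.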

How the data were processed

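Per the labels' protocols, total RNA prepared with Trizol carried the Cy3 label. Per the file headers, arrays of design Agilent-014868 were quantified by Feature Extraction 10.5.1.1, with probe positions on mm8. Each deposited scanner file holds, per spot, an intensity: a processed signal, background-subtracted, with a substitute where a spot is not above background; the well-above flag used a multiple of 13 background SDs. The authors also deposited a value table, a linear ratio that equals the processed signal divided by the array's median (100% of spots within 1%; each column's median is 1). All its columns were used.

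Spots flagged as outliers (67 to 151 an array) and controls were dropped, and spots of a probe averaged. The processed signal was taken to log2 and the array's 75th percentile subtracted. Probes well above background on all 3 arrays of a group were tested, 32347 of 41174, two-sided and without covariates by lmFit and eBayes (limma 3.58.1, R 4.3.3), and Benjamini-Hochberg adjustment over all of them at a threshold of 0.05. The fit was tested on simulated data. Of several probes of a gene, the tested one of highest mean decided its call. All members and their probes were named; of each list the 2 largest called differences per direction, and per member the 2 genes nearest in level. The members and lists were chosen with earlier results of these data known. Accessions matched 7 members to RefSeq (GRCm38.p6), 1 was matched by symbol and 1 not. Alternatives were other scalings, background corrections, filters, probe summaries, slide and replicate blocks, a variance trend and leaving out each array. Promoters were aligned with Biopython 1.88 and figures drawn with matplotlib 3.10.9 in Python 3.11.15.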

Additional observations from a re-analysis of the deposited data

How the results depend on the processing

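Of the 7 called members, 6 kept their direction and stayed past the threshold under every alternative that could test them, and Mup3 did so except with quantile normalization (0.24, limma adjusted p = 0.209) and normexp (0.28, limma adjusted p = 0.141). With these 2 settings 6 members were called, and 7 with the others except the filter on all 6 arrays, where 1 member (Amy1) could be tested and was called. Leaving out 1 array gave log2 differences of 11.05 to 11.63 for Spt2, 8.17 to 8.63 for Spt1, 7.71 to 8.28 for Mup1, 6.15 to 6.44 for Mup4, 4.33 to 5.28 for Mup5, 1.18 to 1.43 for Mup3 and 1.26 to 1.40 for Amy1.

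The split of all calls depended on the scaling: the share towards thymic cells was 54.3% as reported and 43.0% after quantile normalization (9907 and 13158 probes, a median shift of -0.27), 33.3% with median centring (8471 and 17002) and 33.3% with the deposited values (8474 and 17004). With the filter on all 6 arrays it was 42.6% (7326 and 9859). By gene name, 6569 (1 probe per gene) and 6447 (median over probes) were higher in thyroid cells, of fewer features tested. With the filter on all 6 arrays, genes higher in thymic cells numbered 3 lipocalins, 5 acinar, 1 submaxillary, 9 duct and 3 secretoglobin genes, since fewer could be tested. With normexp 3 submaxillary genes were higher. Lipocalins higher in thyroid cells numbered 0, but 1 with median centring, 1 with the deposited values and 3 with quantile normalization; the cause was not tested. The order of the thymic arrays under other scalings was chosen after seeing the data.

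Same-numbered replicates showed no shared deviation (correlations of 0.019, -0.058 and -0.055, against -0.075 to 0.123 for the other pairs). These values cannot tell whether such samples were collected or processed together. With the replicate block 11572 probes passed towards thymic cells and 9379 towards thyroid cells, and the 7 members were called, with log2 differences of 11.29 for Spt2 to 1.28 for Mup3 (limma adjusted p = 0.00219). Low signals limit the thyroid values of 5 member probes to bounds.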
